A study of Mus musculus with 48 samples.

Results

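The unfolded protein response and the integrated stress response were examined here through 32 genes, taken as the rows of the deposited mouse count table that carry the listed gene symbols. All 32 symbols were found among the 30055 gene symbols of the table, and all 32 passed the filter on low counts in liver, in visceral white adipose tissue and in the comparison of the tissues. The rule that picks them is a list of names with no threshold on a measured value, though the list was drawn up with earlier results of these data known. Sensors and transcription factors made up 7 of them, chaperones and folding enzymes of the endoplasmic reticulum (ER) 14, genes of ER-associated degradation and protein translocation 7, and targets or feedback genes of the integrated stress response 4.

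Secretory and membrane proteins fold in the ER, and unfolded proteins there engage the sensors IRE1 (encoded by Ern1), PERK (Eif2ak3) and ATF6 (Atf6). IRE1 splices the Xbp1 mRNA, ATF6 is released by cleavage as a transcription factor, and PERK phosphorylates eIF2α, which lowers general translation while favouring that of Atf4. Other eIF2α kinases, which answer amino acid shortage, haem shortage or double-stranded RNA, converge on the same step, and the joint output through ATF4, CHOP (Ddit3) and ATF3 is called the integrated stress response. The hepatocyte secretes most plasma proteins and carries an extensive ER, and the adipocyte secretes adipokines and lipoprotein lipase. Splicing, cleavage and phosphorylation were not measured here, so only the mRNA levels of these genes are described.

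The libraries came from the liver and the visceral fat of C57BL6/J mice of both sexes. From 8 weeks of age the mice ate standard chow as the regular diet (RD) or a diet with 45% of its calories as fat, named HFD for high-fat diet, for 2 or 12 weeks. The tissues, diets, times and sexes gave 16 groups of 3 libraries, 48 in all: HFD and RD females and HFD and RD males at 2 weeks and at 12 weeks, in each tissue. The HFD and the chow were different products, so the fat content and the rest of the diets' composition cannot be told apart. The labels do not say whether a liver and an adipose library with the same number came from one animal, and p-values therefore measure only the spread between these libraries.

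Promoter elements of the unfolded protein response were looked for in these genes. The ER stress response element (ERSE, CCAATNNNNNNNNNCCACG), which ATF6 and XBP1 bind together with NF-Y, was searched on both strands from 250 bases before to 50 bases after each start in the RefSeq promoter table (GRCm38.p6), where 28 of the 32 genes have an entry. It was present in 9 of these 28 genes (32.1%), against 37 of all 27025 genes in the table (0.137%). The 9 were Hspa5, Hsp90b1, Dnajc3, Creld2, Pdia6, Calr, Canx, Syvn1 and Derl3. The shorter form ERSE-II (ATTGGNCCACG) was present in Dnajb11 and Herpud1 (7.14% of the 28, against 0.0444% of all genes). A C/EBP-ATF response element (CARE, TGATGNAA), the kind of site to which ATF4 binds, was present in Asns, Atf3, Herpud1, Trib3 and Chac1 (17.9%, against 4.51%). The XBP1 element TGACGTGG had a match in 0 of the 28, against 0.714% of all genes. No matches overlapped one another. Dnajb9, Sdf2l1, Pdia3 and Pdia4, also chaperones or folding enzymes, had no match to any of these elements.

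The 250 bases before the start of 4 genes are shown, 5′ to 3′ on the strand of the gene, to set both kinds of element beside genes whose levels are given below: 3 chaperone genes with an ERSE match in capitals, and Asns, the gene called in the most comparisons, with its CARE match in capitals.
Hspa5: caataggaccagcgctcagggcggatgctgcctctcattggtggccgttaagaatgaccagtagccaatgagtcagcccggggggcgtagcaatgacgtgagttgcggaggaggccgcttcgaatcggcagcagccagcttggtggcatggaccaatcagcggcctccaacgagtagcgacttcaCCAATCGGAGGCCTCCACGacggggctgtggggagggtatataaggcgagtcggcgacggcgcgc
Hsp90b1: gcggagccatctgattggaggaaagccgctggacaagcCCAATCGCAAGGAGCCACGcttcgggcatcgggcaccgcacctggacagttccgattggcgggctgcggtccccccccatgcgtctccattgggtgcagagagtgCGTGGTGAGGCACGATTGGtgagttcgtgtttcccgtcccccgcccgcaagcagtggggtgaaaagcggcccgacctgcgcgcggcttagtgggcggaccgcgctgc
Creld2: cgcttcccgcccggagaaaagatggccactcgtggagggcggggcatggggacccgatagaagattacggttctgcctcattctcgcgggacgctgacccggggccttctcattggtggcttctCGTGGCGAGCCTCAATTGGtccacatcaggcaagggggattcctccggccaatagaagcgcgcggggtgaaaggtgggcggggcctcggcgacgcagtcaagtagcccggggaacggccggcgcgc
Asns: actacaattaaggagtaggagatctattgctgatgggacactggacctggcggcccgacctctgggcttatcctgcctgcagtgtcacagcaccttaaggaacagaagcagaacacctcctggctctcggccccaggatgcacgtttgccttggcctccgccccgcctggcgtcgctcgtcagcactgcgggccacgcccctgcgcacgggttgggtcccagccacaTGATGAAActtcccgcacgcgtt

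Hspa5 encodes BiP, the main HSP70-type chaperone of the ER, and its printed stretch is chr2:34771840-34772089 on the plus strand. Counted with the start base as 0, its ERSE match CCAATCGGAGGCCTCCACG lies at -65 to -47. Hsp90b1 encodes GRP94, the HSP90 of the ER, and its stretch is chr10:86705445-86705694 on the minus strand. It holds 2 matches, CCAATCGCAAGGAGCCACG at -212 to -194 and, on the opposite strand, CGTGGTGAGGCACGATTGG at -107 to -89. Creld2 encodes a secreted ER protein with disulfide isomerase activity, and its stretch, chr15:88819396-88819645 on the plus strand, holds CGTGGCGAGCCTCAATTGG at -126 to -108, also on the opposite strand. Asns encodes asparagine synthetase, and its stretch is chr6:7693210-7693459 on the minus strand. The match TGATGAAA at -23 to -16 has the letters of the nutrient-sensing element known from the human ASNS promoter. A match is a description of the letters in this window and does not show that a factor bound there.

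Liver libraries held 50888778 to 80062383 expected counts and adipose libraries 44698039 to 105409419. Levels are given in CPM (counts relative to library sizes that were scaled within each tissue), and since CPM does not correct for gene length, levels are compared only within a gene. The Y-linked gene Ddx3y was at most 0.807 CPM in libraries labelled F and at least 41.7 CPM in those labelled M. In liver, the summed level of 10 hepatocyte markers was at least 111700 CPM in every group, and in adipose tissue that of 8 adipocyte markers was at least 22140 CPM apart from HFD 2-week female 1, at 9659 CPM. By marker levels, the libraries that stood apart included liver RD 2-week male 8, with 8179 CPM of pancreatic acinar markers. These markers were at 294.8 CPM in RD 2-week male 6 and at most 4.188 CPM in every other liver library. Another was adipose HFD 2-week female 1, with 1302 CPM of markers of other epithelium. In male adipose tissue, 10 epididymis markers summed to 6889 CPM in HFD 2-week male 13, and to 9488 and 2800 CPM in RD 2-week males 6 and 8. At 12 weeks they summed to 2.08 to 7.47 CPM in HFD males, against 3182 to 6005 CPM in RD males, so at that time the diet and the epididymis share of male adipose samples cannot be told apart.

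The libraries that mattered most for the stress response genes were the liver and the adipose library numbered HFD 12-week male 4, called male 4 below in each tissue. The liver library had the highest level of its group of 3 for 30 of the 32 genes, and the adipose library for 28 of the 32. The 27 genes for which male 4 was highest in both tissues included every chaperone and folding enzyme except Dnajb9, which was highest there in liver alone. Among all 24 libraries of a tissue male 4 was highest for 21 genes in liver and for 20 in adipose tissue. The same 17 genes were among both. The share of all genes that were highest in male 4 was not computed, so these counts are not read as particular to the 32 genes. Hspa5 stood at 3723 CPM in the liver of HFD 12-week male 4, against 764 and 1031 CPM in HFD males 2 and 3. In adipose tissue the same gene stood at 1758 CPM in male 4, against 893 and 782 CPM in males 2 and 3. Over the 32 genes, the median ratio of male 4 to the mean of males 2 and 3 was 2.109 in liver and 1.375 in adipose tissue.

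**Figure D1:**
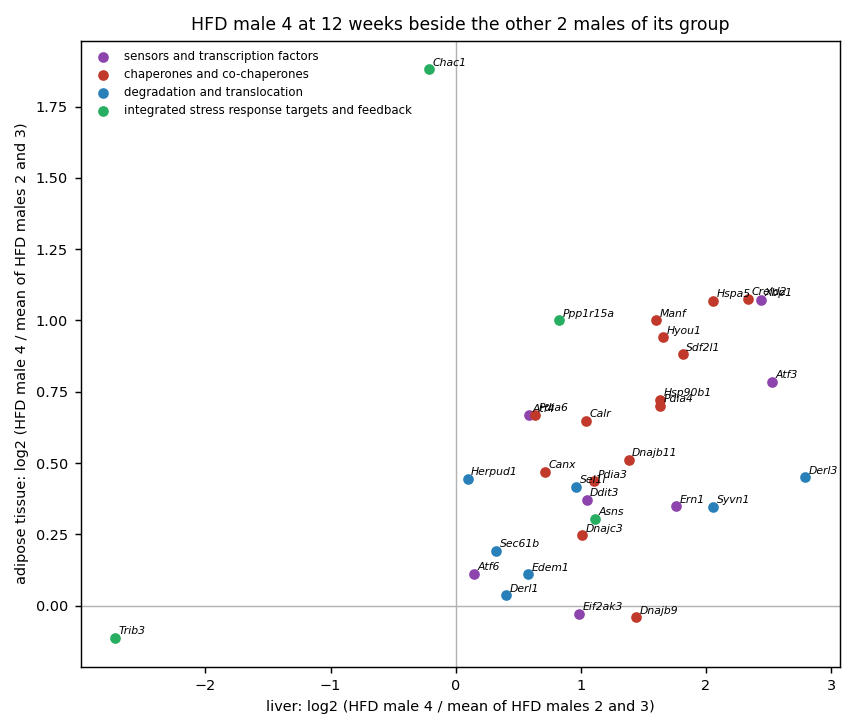
Each point is 1 of the 32 genes, placed by the log2 ratio of HFD 12-week male 4 to the mean of HFD 12-week males 2 and 3 in liver (horizontal axis) and in adipose tissue (vertical axis). Hspa5, Xbp1 and Creld2 lie far to the upper right, with ratios of 4.15, 5.43 and 5.04 in liver and 2.10, 2.10 and 2.11 in adipose tissue, and Trib3 lies far to the left, at 0.152 in liver.

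The plot of male 4 against its group shows that the ratios were not uniform over roles. Xbp1, the transcription factor downstream of IRE1, was 5.43 times the mean of the other 2 males in liver and 2.10 times in adipose tissue. Syvn1, the ubiquitin ligase HRD1 of ER-associated degradation, was 4.16 times in liver and 1.27 times in adipose tissue. Trib3, a pseudokinase induced through ATF4 and CHOP that feeds back on them, went the other way: 1.5 CPM in liver male 4, against 8.73 and 11 CPM in males 2 and 3. Chac1, a glutathione-degrading enzyme induced through ATF4, was 0.864 times in liver and 3.68 times in adipose tissue. A summed list of heat shock and immediate early genes was at 5328 CPM in liver male 4, against 2029 to 2343 CPM in males 2 and 3, and at 4381 CPM in adipose male 4, against 1998 to 2765 CPM. Acute phase genes were at 31190 CPM in liver male 4, against 13020 to 15980 CPM, and at 3447 CPM in adipose male 4, within the 3389 to 3764 CPM of males 2 and 3. Markers of other epithelium were at 833.6 CPM in liver male 4, against 290.1 to 306.0 CPM, and at 54.42 CPM in adipose male 4, against 9.32 to 11.05 CPM. Adipocyte markers were at 83.82 CPM in liver male 4, against 26.83 to 33.18 CPM. The part of these in the levels of the stress response genes was not tested. Counts of calls below that involve HFD 12-week males are given with and without male 4.

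How the 32 genes differ between the tissues was asked on the regular diet in females, with 6 liver and 6 adipose libraries in 1 fit. Of the 32, 24 were higher and 3 lower in liver than in adipose tissue by edgeR's quasi-likelihood test with Benjamini-Hochberg adjustment, against 34.6% higher and 37.6% lower of all 16915 genes tested (72.2% in either direction). The median log2 difference was 1.25 over the 32 genes and -0.06 over all genes tested. By role, 13 of 14 chaperones and folding enzymes were higher in liver, with a median log2 difference of 1.36. In bulk tissue, fewer cells of a type and less RNA per cell cannot be told apart, in this comparison and in all that follow.

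Herpud1, an ER membrane protein that assembles the degradation complex, had the widest difference upwards. On a scaling common to both tissues it stood at 641, 466, 631, 549, 450 and 590 CPM in liver, against 35.8, 45.6, 42.1, 47.8, 37.2 and 51.2 CPM in adipose tissue. Every liver library was above every adipose library, with a log2 difference of 3.68 ± 0.15 (SE; adjusted p = 7.28e-10, edgeR's quasi-likelihood test). Asns, which makes asparagine from aspartate and is a classic ATF4 target, went the opposite way. It stood at 0.518, 0.529, 0.369, 0.252, 0.630 and 0.620 CPM in liver, against 42.5, 52.2, 42.2, 53.1, 35.5 and 39.6 CPM in adipose tissue, so the tissues were far apart. Its log2 difference was -6.50 ± 0.21 (adjusted p = 1.64e-10).

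Among the sensors, Ern1 averaged 141 CPM in liver and 20.9 CPM in adipose tissue, a log2 difference of 2.76 ± 0.12, and Atf6 134 and 51.4 CPM, a difference of 1.38 ± 0.07. Edem1, a mannosidase-like protein that directs misfolded glycoproteins to degradation, was higher in liver by 1.69 ± 0.09. The chaperones with the smallest p-values were Dnajc3, a co-chaperone of BiP also known as p58IPK (1.85 ± 0.13), the lectin chaperone Canx (1.37 ± 0.11) and the disulfide isomerase Pdia4 (1.88 ± 0.15). Also higher in liver were Hsp90b1, Sel1l, Calr, Hyou1, Syvn1, Hspa5, Dnajb11, Trib3, Pdia3, Ppp1r15a, Atf4, Dnajb9, Manf, Creld2, Sdf2l1, Eif2ak3 and Sec61b. Of these 17 calls that of Sec61b (0.49 ± 0.19, adjusted p = 0.0378) depended on single libraries: it held in 7 of the 16 alternatives, with adjusted p up to 0.107, and the others held in all 16. The other 2 genes lower in liver, given for that reason, were Derl1, a channel-like protein of the degradation pathway (-0.78 ± 0.10), and Ddit3, the pro-apoptotic transcription factor CHOP (-0.59 ± 0.13). Xbp1 was not called, at 0.18 ± 0.12, and neither were Atf3 (-0.61 ± 0.42, adjusted p = 0.208), Chac1, Derl3 (1.47 ± 0.71, adjusted p = 0.0828) and Pdia6. With same-numbered liver and adipose libraries as blocks, Atf3 was called at -0.62 (adjusted p = 0.0342) and Derl3 at 1.68 (adjusted p = 0.0312).

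Other genes of the same pathways, from lists that hold none of the 32, were called higher in liver more often than lower. The degradation and translocation list also holds coat genes of ER export, such as Sec13, Sec23b, Sec24d and Sec31a. Of 27 other ER chaperones and folding enzymes 19 were higher and 6 lower in liver, of 35 other degradation and translocation genes 22 and 2, and of 21 other sensors and signalling genes 10 and 4. Of 38 other integrated stress response targets, 16 were higher and 15 lower. The shares over all genes are the 34.6% higher and 37.6% lower given above. Psat1 and Phgdh, which act in serine synthesis, were lower in liver: Psat1 averaged 0.763 CPM in liver and 76.5 CPM in adipose tissue (log2 difference -6.66 ± 0.20). The mitochondrial serine hydroxymethyltransferase Shmt2 was higher in liver, by 4.13 ± 0.09. The liver transcription factor Creb3l3, which is cleaved as ATF6 is, averaged 349 CPM in liver and 0.558 CPM in adipose tissue.

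Within liver, the sex comparisons held more calls among these genes than the diet comparisons. The 2 times were not compared within a diet and sex. The question is how females differ from males on the same diet at the same time, which was fitted over all 24 liver libraries in 8 groups. On RD, females had lower levels of 3 of the 32 genes at 2 weeks and of 3 at 12 weeks, against 4.45% and 3.18% lower of all 15897 genes tested (9.81% and 8.81% in either direction). On HFD, 10 were lower and 1 higher at 2 weeks, against 6.06% lower and 6.33% higher of all genes (12.4% in either direction), and 15 were lower at 12 weeks, against 7.4% lower (17.3%). The median log2 difference over the 32 genes was -0.27, -0.67, -0.85 and -0.88 in these 4 comparisons, and over all genes it was 0.06, 0.03, 0.05 and 0.01.

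**Figure D2:**
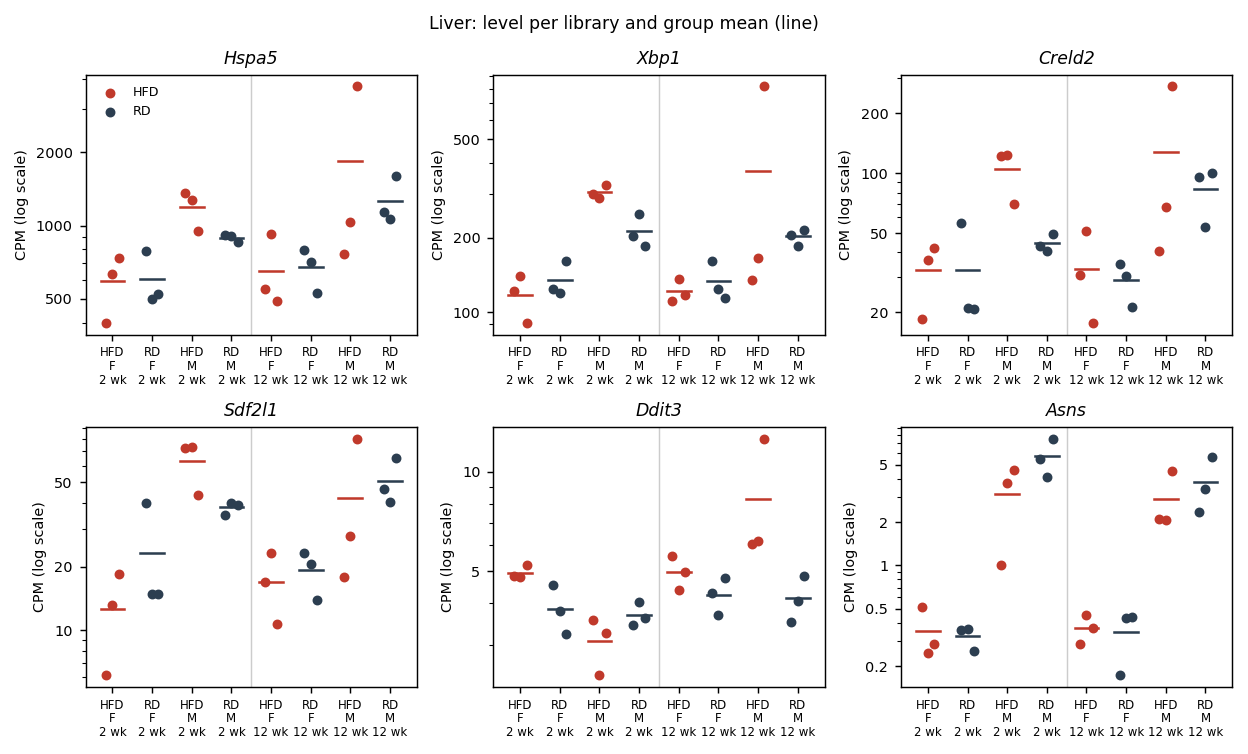
Levels in CPM (log axis) of Hspa5, Xbp1, Creld2, Sdf2l1, Ddit3 and Asns in each of the 24 liver libraries, by group, with HFD beside RD; points are libraries and bars are group means. Asns is at most 0.513 CPM in females and at least 1.01 CPM in males, and HFD 12-week male 4 is the highest point for Hspa5, Xbp1, Creld2, Sdf2l1 and Ddit3.

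Asns was lower in females in all 4 comparisons, as the plot of liver levels shows. At 2 weeks on HFD it stood at 0.513, 0.249 and 0.285 CPM in females, against 1.01, 3.71 and 4.61 CPM in males. At 2 weeks on RD it stood at 0.355, 0.363 and 0.254 CPM in females, against 5.49, 4.12 and 7.56 CPM in males. At 12 weeks its level on HFD was 0.286, 0.455 and 0.370 CPM in females, against 2.11, 2.06 and 4.50 CPM in males, and on RD it was 0.174, 0.431 and 0.438 CPM in females, against 2.34, 3.41 and 5.62 CPM in males. The 12 female libraries all lie below the 12 male libraries. These levels rest on 12 to 42 expected counts per female library and 70 to 537 per male library. The log2 differences were -3.13 ± 0.51 on HFD and -4.14 ± 0.53 on RD at 2 weeks, and -2.96 ± 0.51 on HFD and -3.43 ± 0.52 on RD at 12 weeks. The adjusted p-values of edgeR's quasi-likelihood test were 0.000352, 2.13e-05, 0.000424 and 0.000187 in that order, and every alternative run within liver kept all 4 calls.

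On RD at 2 weeks the other genes lower in females were Pdia6, a protein disulfide isomerase, and Sec61b, a subunit of the translocation channel. Pdia6 stood at 16.4, 11.4 and 12.7 CPM in females, against 29.0, 29.5 and 28.0 CPM in males, without overlap, and differed by -1.10 ± 0.23 on the log2 scale (adjusted p = 0.00474, edgeR's quasi-likelihood test). Sec61b differed by -0.61 ± 0.17 (adjusted p = 0.0299), a call that was lost without RD female 2 or 4 or RD male 6, 7 or 8, with adjusted p up to 0.125. Male 8 of this group is the library with pancreatic acinar RNA. With the libraries that stood apart left out, Asns, Pdia6, Sec61b and also Xbp1 were called. Plasma and B cell markers summed to 100.7 to 197.9 CPM in RD 2-week females, against 23.38 to 44 CPM in RD 2-week males. Acute phase genes summed to 16070 to 16800 CPM in these females, against 23710 to 30110 CPM in these males. The part of either in the sex difference was not tested.

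On RD at 12 weeks the other genes lower in females were Syvn1 and Atf6. Syvn1 stood at 72.2, 63.8 and 48.7 CPM in females, against 183, 123 and 200 CPM in males, so the sexes did not overlap (-1.45 ± 0.44, adjusted p = 0.0428, edgeR's quasi-likelihood test). Atf6 stood at 91.7, 87.0 and 105 CPM in females, against 135, 111 and 127 CPM in males, with a smaller gap (-0.39 ± 0.12, adjusted p = 0.0438). The number of genes called here depended on the fit: it was 9 with DESeq2 and 17 with the compared groups fitted alone. It was 1, Asns, without RD female 5, RD female 7, RD male 2 or RD male 4. Macrophage markers summed to 427.7 to 722.1 CPM in RD 12-week females, against 290.3 to 331 CPM in RD 12-week males. Plasma and B cell markers summed to 100.8 to 220 CPM in these females, against 42.33 to 77.6 CPM in these males. The part of these cells in the sex difference was not tested here either.

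After 2 weeks on HFD the ER chaperones and co-chaperones made up 5 of the 10 genes lower in females: Sdf2l1, Pdia6, Dnajc3, Manf and Dnajb11. Sdf2l1, a partner of ER J-domain proteins, stood at 6.14, 13.2 and 18.5 CPM in HFD females, against 72.7, 73.8 and 43.4 CPM in HFD males. The lowest male was well above the highest female, and the log2 difference was -2.33 ± 0.52 (adjusted p = 0.00664, edgeR's quasi-likelihood test). Manf, a secreted ER stress-responsive factor, differed by -1.62 ± 0.43 (adjusted p = 0.0189), Pdia6 by -0.95 ± 0.23 (0.00996) and Dnajc3 by -0.94 ± 0.23 (0.0107). Creld2, which was not called, stood at 18.5, 36.6 and 42.2 CPM in HFD females, against 122, 123 and 70.1 CPM in HFD males.

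Among the degradation and translocation genes of the same comparison, Derl1 differed by -0.64 ± 0.12 (adjusted p = 0.00157, edgeR's quasi-likelihood test) and Sec61b by -0.88 ± 0.17 (adjusted p = 0.00205), both lower in females. Xbp1 and Edem1 were also lower. Herpud1 was the exception, with 346, 630 and 535 CPM in HFD females, against 317, 210 and 257 CPM in HFD males. Every female was above every male, though the lowest female and the highest male were close, and the log2 difference was 0.95 ± 0.27 (adjusted p = 0.0236). Acute phase genes were high in this male group, with summed levels of 33820 to 99350 CPM in HFD 2-week males, against 17320 to 21690 CPM in HFD 2-week females, and their part in the sex difference was not tested. Plasma and B cell markers, none of the 10 found at 0, summed to 78.03 to 138.3 CPM in HFD 2-week females, against 13.58 to 17.58 CPM in HFD 2-week males, and hepatocyte markers to 148500 to 178800 CPM, against 111700 to 116800 CPM, and their part was not tested either. The number of genes called was 17 with DESeq2 and 19 with the libraries that stood apart left out, and it was 5 without HFD male 13 (Asns, Derl1, Dnajc3, Sdf2l1 and Sec61b), 6 without HFD female 1 and 7 without HFD male 12.

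At 12 weeks on HFD the calls turned on male 4. Hspa5 stood at 548, 921 and 488 CPM in HFD females, against 764, 1031 and 3723 CPM in HFD males. Male 2 lay within the range of the females, male 3 just above it and male 4 far above it. The log2 difference was -1.50 ± 0.43 (adjusted p = 0.0206, edgeR's quasi-likelihood test), and -0.44 without male 4 (adjusted p = 0.409). Xbp1 stood at 112, 136 and 118 CPM in HFD females, against 136, 166 and 818 CPM in HFD males. Its difference was -1.62 ± 0.43 (adjusted p = 0.0154), and -0.28 without male 4 (adjusted p = 0.393).

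Syvn1 stood at 43.0, 88.0 and 50.7 CPM in HFD 12-week females, against 86.5, 136 and 462 CPM in HFD 12-week males. It differed by -1.91 ± 0.44 on the log2 scale (adjusted p = 0.00583, edgeR's quasi-likelihood test), and by -0.85 without male 4 (adjusted p = 0.0787). Dnajb9, a J-domain co-chaperone also called ERdj4, differed by -1.45 ± 0.41 (adjusted p = 0.0207), Canx by -0.61 ± 0.18 (0.0221), Pdia4 by -1.18 ± 0.34 (0.0230) and Manf by -1.46 ± 0.43 (0.0255). The remaining genes called were Dnajb11, Creld2, Pdia3, Ddit3, Hsp90b1, Hyou1 and Eif2ak3, all lower in females. Without male 4 the 15 calls fell to 1, Asns, at -2.47 (adjusted p = 0.00303), and the median over the 32 genes to -0.30. In that fit 3.11% of all genes were called lower in females and 10.2% in either direction. Without HFD female 3, and likewise without HFD female 7, 2 genes were called, Asns and Syvn1. The 10 macrophage markers, none at 0, summed to 480.8 to 542.3 CPM in HFD 12-week females, against 120.0 to 190.0 CPM in HFD 12-week males, and plasma and B cell markers to 54.87 to 110.8 CPM, against 23.08 to 33.94 CPM. The part of these cells in the sex difference was not tested.

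The wider pathway lists are read beside the shares over all genes, which were 4.45%, 3.18%, 6.06% and 7.4% lower in females on RD at 2 and 12 weeks and on HFD at 2 and 12 weeks, and 5.37%, 5.63%, 6.33% and 9.93% higher. Of 35 other degradation and translocation genes tested, 4 and 2 were lower in females on RD and 14 and 8 on HFD, with none higher. The 8 included the ER export coat genes Sec13, Sec23b, Sec24d and Sec31a, which act in neither degradation nor translocation. Sec13, a coat protein of ER export vesicles, was lower in HFD females at 2 weeks, with a log2 difference of -0.63 ± 0.11, and so was Sec61g, another subunit of the translocation channel, with -1.45 ± 0.29. Of 27 other chaperones and folding enzymes, 2 and 3 were lower on RD and 7 and 3 on HFD, with 1 higher on HFD at 2 weeks, and Pdia5 differed by -1.07 ± 0.17 on HFD at 2 weeks. Among 38 other integrated stress response targets, 4, 5, 3 and 7 were lower in females in the 4 comparisons and 1, 1, 1 and 3 were higher. Of 21 other sensors and signalling genes tested, 3, 1, 2 and 3 were lower and 0, 0, 1 and 0 higher. In several of these lists, such as the sensors on RD at 12 weeks and the integrated stress response targets on HFD at 2 weeks, the count is near the share over all genes.

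Without male 4, when 3.11% of all genes were lower and 7.06% higher in females on HFD at 12 weeks, the lower calls of that comparison came to 1 degradation and translocation gene (Ubxn4), 1 chaperone or folding enzyme (Creld1), 1 integrated stress response target (Eif4ebp1) and 0 sensors, and 4 integrated stress response targets were higher. Mthfd2, a mitochondrial folate enzyme, was lower in females in all 4 comparisons, with 0.773 CPM in RD 2-week females and 2.52 CPM in RD 2-week males. Its call on HFD at 12 weeks, at -0.99 ± 0.28, was lost without male 4, at -0.83 (adjusted p = 0.0936). Vldlr, a lipoprotein receptor, was higher in females in all 4, with 9.85 CPM in RD 2-week females and 0.961 CPM in RD 2-week males, and on HFD at 12 weeks also without male 4, at 2.50 (adjusted p = 0.000155).

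**Figure D3:**
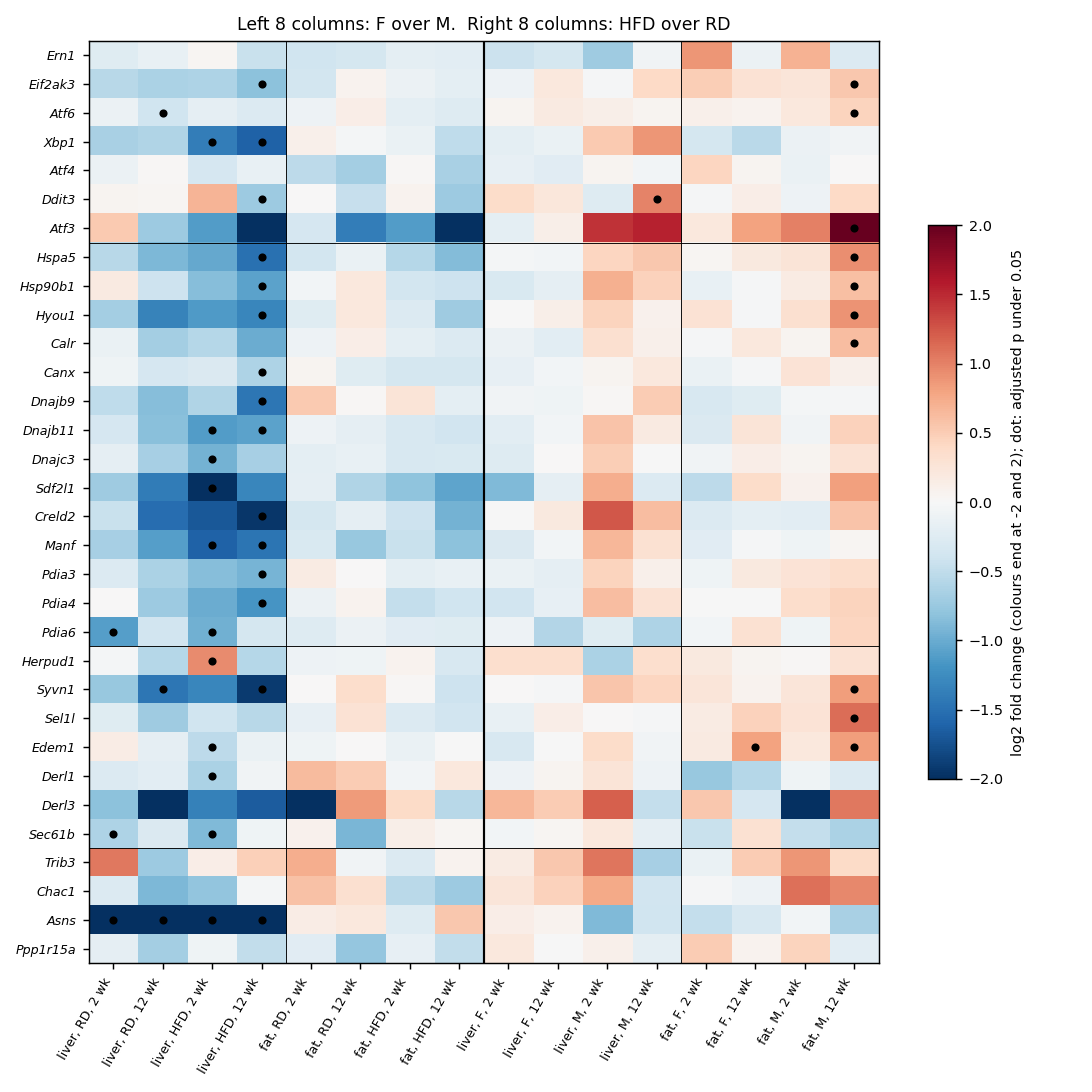
Log2 differences of the 32 genes (down the page, by role) in the 8 comparisons of females with males and the 8 of HFD with RD (across); colour runs to ±2 and a dot marks a call by edgeR's quasi-likelihood test. The liver sex comparisons hold 32 of the dots, and the HFD over RD comparison of 12-week male adipose tissue holds 10.

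What the diet did in the liver is the second question. In females no gene of the 32 was called at 2 weeks or at 12 weeks by edgeR's quasi-likelihood test, against 0.252% and 0.00629% of all genes. At an unadjusted p below 0.05 there were 0 and 1, and DESeq2 called 0 at both times. At 2 weeks the smallest p-values among the 32 were those of Edem1 (log2 difference -0.31 ± 0.17, adjusted p = 0.566) and Sdf2l1 (-0.88 ± 0.51, 0.59). At 12 weeks they were those of Pdia6 (-0.58 ± 0.23, 1) and Atf6 (0.17 ± 0.12, 1). In males at 2 weeks 0 of the 32 were called, 4 were below 0.05 unadjusted and DESeq2 called 0, against 0.34% of all genes.

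The male livers at 2 weeks had higher values on HFD for most of these genes: 26 of the 32 log2 differences were positive, with a median of 0.39 over the 32 genes and 0.01 over all genes. Creld2 stood at 122, 123 and 70.1 CPM in HFD males, against 43.3, 40.6 and 49.6 CPM in RD males, and Hspa5 at 1361, 1274 and 951 CPM in HFD males, against 916, 905 and 855 CPM in RD males. For both genes all HFD males were above all RD males, with log2 differences of 1.24 ± 0.58 (adjusted p = 0.454, edgeR's quasi-likelihood test) for Creld2 and 0.42 ± 0.42 (0.803) for Hspa5. The smallest p-values were those of Herpud1 (-0.64 ± 0.27, adjusted p = 0.366) and Dnajc3 (0.50 ± 0.23, 0.451). Acute phase genes summed to 33820 to 99350 CPM in HFD 2-week males, against 23710 to 30110 CPM in RD 2-week males, and their part in these values was not tested. Outside the 32, Traf2, an adaptor of IRE1 signalling, was lower on HFD (log2 difference -0.71 ± 0.15), as was Nupr1, a stress-induced chromatin protein (-3.46 ± 0.67), and no other gene of the 4 pathway lists was called in a liver diet comparison.

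In males at 12 weeks Ddit3 was the only gene of the 32 called, higher on HFD, against 0.201% higher of all genes and 1.12% in either direction. It stood at 6.03, 6.16 and 12.6 CPM in HFD males, against 3.51, 4.07 and 4.84 CPM in RD males. All HFD libraries were above all RD libraries and male 4 was the highest, with a log2 difference of 0.99 ± 0.23 (adjusted p = 0.0407, edgeR's quasi-likelihood test). Without male 4 the difference was 0.53 (adjusted p = 0.243), and the call was also lost without HFD male 3 or RD male 2, 3 or 4. For Hspa5 the difference was 0.54 ± 0.42 with male 4 and -0.52 without it. The median over the 32 genes was 0.09 with male 4 and -0.41 without it.

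Whether the diet acted differently in the sexes or at the 2 times was tested with interaction terms. In liver the female minus male difference of the diet effect gave 0 calls among the 32 at 2 weeks and at 12 weeks, against 0% and 0% of all genes, with 6 and 1 genes below 0.05 unadjusted and 0 and 0 called by DESeq2. The smallest p-values were those of Edem1 (-0.67 ± 0.24, adjusted p = 0.378, edgeR's quasi-likelihood test) and Herpud1 (0.98 ± 0.38, 0.42) at 2 weeks, and of Ddit3 (-0.76 ± 0.33, 0.672) and Xbp1 (-1.01 ± 0.60, 0.789) at 12 weeks. The 12-week minus 2-week difference of the diet effect gave 0 calls in females (0% of all genes, 0 below 0.05 unadjusted, DESeq2 0). It gave 0 calls in males (0.352% of all genes, 3 below 0.05 unadjusted), where DESeq2 called 1, Ddit3. The liver diet effects on Ddit3 in males were -0.26 at 2 weeks and 0.99 at 12 weeks, and their difference was 1.26 ± 0.33 (adjusted p = 0.106, edgeR's quasi-likelihood test). Herpud1 followed at 0.98 ± 0.38 (adjusted p = 0.317), and in females Pdia6 (-0.49 ± 0.33, 1) and Edem1 (0.30 ± 0.24, 1) had the smallest p-values. Without male 4 the Ddit3 terms were -0.30 for sex (adjusted p = 0.953) and 0.81 for time (adjusted p = 0.169).

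In adipose tissue the diet comparison in males at 12 weeks held most of the calls. Of the 32 genes, 10 were higher on HFD and none lower, against 13.2% higher of all 18325 genes tested and 28.2% in either direction. The median log2 difference was 0.44 over the 32 genes and -0.11 over all genes. By role, 3 of 7 sensors and transcription factors, 4 of 14 chaperones, 3 of 7 degradation and translocation genes and 0 of 4 integrated stress response targets rose.

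**Figure D4:**
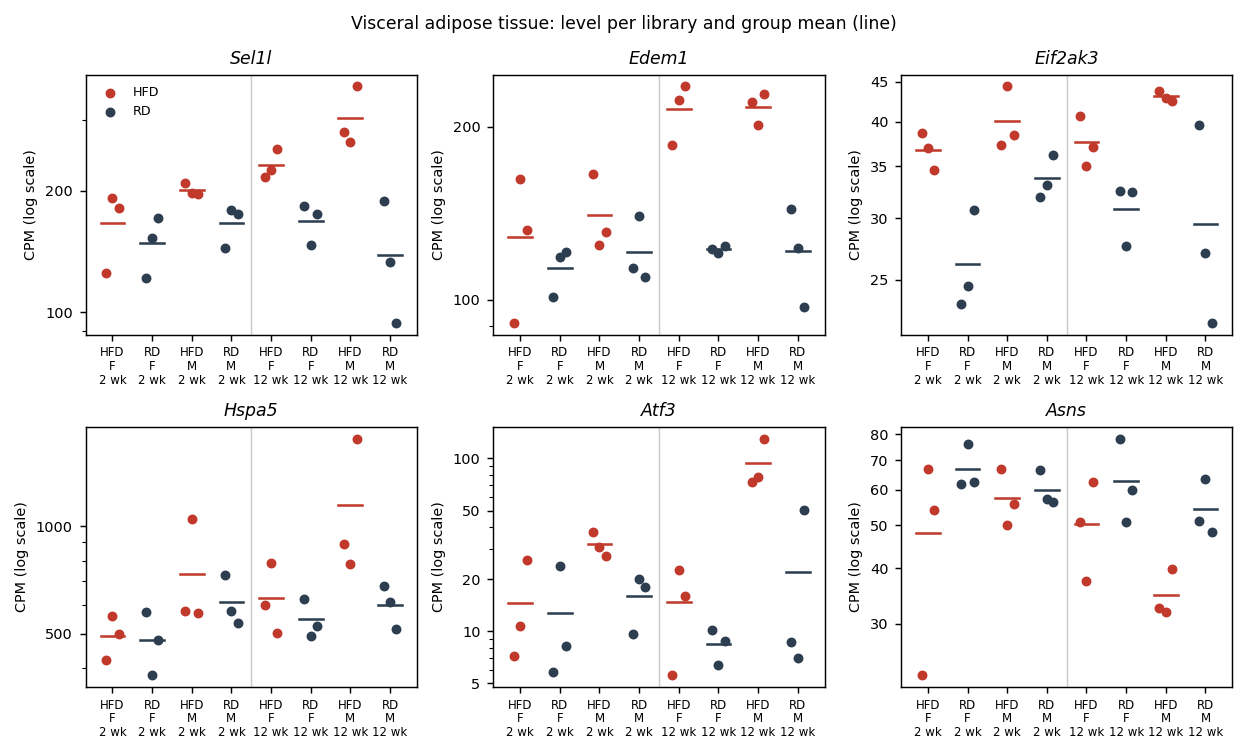
Levels in CPM (log axis) of Sel1l, Edem1, Eif2ak3, Hspa5, Atf3 and Asns in each of the 24 adipose libraries, by group, with HFD beside RD; points are libraries and bars are group means. At 12 weeks the HFD males lie at 264 to 363 CPM for Sel1l, all above the RD males at 94.2 to 188 CPM.

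Degradation genes led this comparison. Sel1l, the adaptor that holds the ligase HRD1 complex together, stood at 279, 264 and 363 CPM in HFD males, against 188, 133 and 94.2 CPM in RD males, as the plot of adipose levels shows. The groups did not overlap and the log2 difference was 1.12 ± 0.22 (adjusted p = 0.00156, edgeR's quasi-likelihood test). Edem1 stood at 221, 202 and 228 CPM in HFD males, against 144, 123 and 97.3 CPM in RD males, again without overlap, with a difference of 0.84 ± 0.19 (adjusted p = 0.00403). Syvn1 differed by 0.83 ± 0.28 (adjusted p = 0.0362).

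Among the sensors, Eif2ak3 stood at 43.9, 42.9 and 42.5 CPM in HFD males, against 39.6, 27 and 22 CPM in RD males, and Atf6 at 93.8, 93.0 and 101 CPM in HFD males, against 84.8, 73.0 and 53.5 CPM in RD males. The HFD males were close to one another and the RD males spread out below them. The log2 differences were 0.55 ± 0.16 for Eif2ak3 (adjusted p = 0.0191, edgeR's quasi-likelihood test) and 0.44 ± 0.14 for Atf6 (adjusted p = 0.0223). Atf3, an early stress transcription factor, stood at 72.9, 78.1 and 130 CPM in HFD males, against 8.70, 7.01 and 50.7 CPM in RD males, where RD male 4 was far above the other 2. Its difference was 2.08 ± 0.70 (adjusted p = 0.0353).

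The chaperones that rose were Hyou1, an ER HSP110-type chaperone (0.90 ± 0.26, adjusted p = 0.0183, edgeR's quasi-likelihood test), Hspa5 (0.92 ± 0.29, 0.0265), Hsp90b1 and the lectin chaperone Calr. Hspa5 stood at 893, 782 and 1758 CPM in HFD males, against 681, 614 and 515 CPM in RD males. Without male 4, 2 genes were called, Sel1l at 0.98 (adjusted p = 0.0127) and Edem1 at 0.81 (adjusted p = 0.0207), while Hspa5 was at 0.48 (adjusted p = 0.21), Eif2ak3 at 0.56 (adjusted p = 0.0515) and the median over the 32 genes at 0.21. In that fit 7.45% of all genes were called higher and 12.9% in either direction, so 2 of the 32 is not above the share over all genes. There were 3 calls without RD male 3 (Sel1l, Edem1 and Atf6) and 4 without RD male 4 (Sel1l, Edem1, Atf3 and Ddit3). Sel1l and Edem1 were thus called whichever library was left out. Of the genes called, Sel1l, Syvn1, Eif2ak3, Atf6, Hyou1, Hsp90b1 and Calr had their lowest level of all 24 adipose libraries in RD male 4. Without RD male 4 the call of Sel1l was kept and those of the other genes just named were lost, so these also rest on that library. The 10 macrophage markers, none of them at 0, summed to 3490 to 4683 CPM in HFD 12-week males, against 1194 to 1420 CPM in RD 12-week males, and the 10 plasma and B cell markers found, none at 0, to 1424 to 2038 CPM, against 836.8 to 1245 CPM. The part of macrophages and of plasma and B cells in these differences was not tested, and the epididymis share given above cannot be told apart from the diet.

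Asns had lower values on HFD in this comparison without passing the threshold, at 32.6, 31.8 and 39.8 CPM in HFD 12-week males, against 51.0, 63.4 and 48.4 CPM in RD 12-week males (log2 difference -0.64 ± 0.28, adjusted p = 0.0859, edgeR's quasi-likelihood test). With the adipose libraries that stood apart left out, 3 genes were called higher, Sel1l, Edem1 and Eif2ak3, and 2 lower, Asns and Xbp1. The pathway lists are again read beside all genes, of which 13.2% were higher and 15% lower. Of the other pathway genes, 4 of 27 chaperones were higher and 3 lower, 4 of 36 degradation and translocation genes higher and 3 lower, 5 of 21 sensors and signalling genes higher and 0 lower, and 11 of 38 integrated stress response targets higher and 3 lower. Wfs1, an ER calcium regulator, rose by 2.11 ± 0.31 on the log2 scale and Creb3l1, a cleaved ER transcription factor of secretory cells, by 1.57 ± 0.34. Sec24d, a cargo-selecting coat protein, rose by 1.09 ± 0.20, Cebpb, a transcription factor of adipogenesis and inflammation, by 1.41 ± 0.24 and Cars, a transfer RNA synthetase, by 0.70 ± 0.13. Calr3, a calreticulin family member, fell by 1.33 on the log2 scale. Without male 4, 7.45% of all genes were higher and 5.45% lower. The list counts were then 0 chaperones higher and 2 lower, 1 degradation and translocation gene higher, 3 sensors and signalling genes higher and 3 integrated stress response targets higher. Wfs1 (1.93), Creb3l1 (1.02), Sec24d (0.99), Cebpb (1.02), Cars (0.57) and Calr3 (-1.36) were all still called, with adjusted p of 0.00108, 0.0357, 0.00886, 0.00561, 0.00864 and 0.0142 in that order.

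Adipose tissue of females showed 1 call at 12 weeks. Edem1 stood at 186, 223 and 235 CPM in HFD females, against 123, 121 and 124 CPM in RD females. The HFD libraries were all higher than the RD libraries, which were nearly equal to one another, and the log2 difference was 0.81 ± 0.19 (adjusted p = 0.0252, edgeR's quasi-likelihood test). It was the only one of the 32, against 1.3% higher of all genes and 2.08% in either direction, and 5 were below 0.05 unadjusted. No gene was called without HFD female 6 or 7 or without RD female 5, 7 or 8. Of the pathway lists, Sec24d (0.90 ± 0.20) and Vldlr (1.27 ± 0.23) were higher on HFD. Acute phase genes summed to 1801 to 2875 CPM in HFD 12-week females, against 718.5 to 834.9 CPM in RD 12-week females, and plasma and B cell markers to 1072 to 1597 CPM, against 527.0 to 825.2 CPM, and the part of either in the Edem1 difference was not tested.

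At 2 weeks no gene of the 32 was called in adipose tissue of either sex by edgeR's quasi-likelihood test, against 0.235% of all genes in females and 0% in males. In females 3 were below 0.05 unadjusted and DESeq2 called 2, Derl1 and Eif2ak3. Derl1 stood at 140, 287 and 282 CPM in HFD females, against 368, 377 and 456 CPM in RD females, lower in every HFD library (-0.76 ± 0.20, adjusted p = 0.0843), and Eif2ak3 differed by 0.49 ± 0.16 (adjusted p = 0.112). HFD female 1, the lowest for Derl1, is the library with few adipocyte transcripts, and the part of that in Derl1 was not tested. In males 2 genes were below 0.05 unadjusted and DESeq2 called 1, Trib3, which stood at 7.84, 6.46 and 6.77 CPM in HFD males, against 3.96, 4.10 and 3.42 CPM in RD males. By edgeR's quasi-likelihood test Trib3 differed by 0.88 ± 0.22 (adjusted p = 0.302) and Chac1 by 1.09 ± 0.43 (adjusted p = 0.391).

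Females and males did not differ by a call for any of the 32 genes in adipose tissue. By edgeR's quasi-likelihood test 0 were called on RD at 2 and 12 weeks and 0 on HFD at 2 and 12 weeks, against 4.28%, 10.6%, 3.8% and 2.85% of all genes. The genes below 0.05 unadjusted numbered 4, 5, 1 and 9, and DESeq2 called 3 (Derl1, Dnajb9 and Trib3), 1 (Sec61b), 0 and 3 (Atf3, Ddit3 and Hspa5). On RD the smallest p-values were those of Trib3 (0.73 ± 0.22, adjusted p = 0.0725) and Dnajb9 (0.53 ± 0.17, 0.084) at 2 weeks, and of Sec61b (-0.91 ± 0.35, 0.0879) and Ppp1r15a, the phosphatase subunit GADD34 that reverses eIF2α phosphorylation (-0.78 ± 0.31, 0.0937), at 12 weeks. On HFD they were those of Pdia4 (-0.47 ± 0.20, 0.185) and Hspa5 (-0.57 ± 0.29, 0.285) at 2 weeks. At 12 weeks on HFD Atf3 stood at 5.58, 22.5 and 16 CPM in females, against 72.9, 78.1 and 130 CPM in males, without overlap (-2.67 ± 0.72, adjusted p = 0.0522), and Ddit3 followed (-0.73 ± 0.20, 0.0627). Without male 4 the Atf3 difference was -2.37 (adjusted p = 0.215) and that of Ddit3 -0.60 (adjusted p = 0.33). Without RD male 2, 5 genes were called on RD at 12 weeks, Atf4, Ddit3, Ppp1r15a, Sec61b and Syvn1. Epididymis markers summed to 3182 to 6005 CPM in RD 12-week males, against 0.9355 to 1.113 CPM in RD 12-week females. Macrophage markers summed to 3490 to 4683 CPM in HFD 12-week males, against 2056 to 2396 CPM in HFD 12-week females. The part of either in these comparisons of the sexes was not tested.

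The interaction terms in adipose tissue gave no calls among the 32 genes by edgeR's quasi-likelihood test. The female minus male difference of the diet effect had 2 genes below 0.05 unadjusted at 2 weeks and 2 at 12 weeks, DESeq2 called 0 and 0, and 0% and 1.25% of all genes were called. The smallest p-values were those of Trib3 (-1.01 ± 0.32, adjusted p = 0.668) and Derl1 (-0.68 ± 0.29, 0.704) at 2 weeks, and of Hyou1 (-0.92 ± 0.37, 0.193) and Sel1l (-0.66 ± 0.30, 0.242) at 12 weeks. So the higher Sel1l and Hyou1 on HFD at 12 weeks in males was not shown to differ from the diet effect in females. The 12-week minus 2-week difference had 2 genes below 0.05 unadjusted in females and 3 in males, against 0.0709% and 5.6% of all genes called, and DESeq2 called 0 and 1, Sel1l. In males Sel1l was at 0.85 ± 0.30 (adjusted p = 0.101) and Edem1 at 0.62 ± 0.26 (adjusted p = 0.159), and in females Edem1 was at 0.63 ± 0.26 (adjusted p = 0.363) and Dnajb11 at 0.56 ± 0.26 (adjusted p = 0.392). Without male 4 the 12-week sex term was -0.53 for Hyou1 and -0.51 for Sel1l, and the time term in males was 0.69 for Sel1l (adjusted p = 0.257).

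Some of the 32 genes kept a narrow range. Over the 24 liver libraries Derl1 ran from 87.6 to 148 CPM, Atf6 from 78.5 to 138 CPM and Atf4, the central transcription factor of the integrated stress response, from 41.2 to 76.8 CPM. Others ranged widely: in liver Asns spanned 43.5-fold, Atf3 19.4-fold, Derl3, a derlin of secretory cells, 18.4-fold and Creld2 15.5-fold between the lowest and the highest library. Derl3 was low throughout, at 0.628 to 11.6 CPM in liver and 0 to 11.9 CPM in adipose tissue, where RD 2-week male 6 was the highest. Derl3 and Chac1 were the only ones of the 32 called in none of the 25 comparisons, and Asns was called in 5, Edem1 and Syvn1 in 4 each. Among adipose libraries, Atf3 spanned 23.3-fold, with its highest level in HFD 12-week male 4. RD 12-week male 4 was the highest for Ppp1r15a, Sec61b and Atf4. The same library was the lowest for Hsp90b1, Atf6, Eif2ak3, Pdia4, Calr, Syvn1, Sel1l and Hyou1.

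The promoter elements can be set beside these differences as a description. In the liver of HFD 12-week mice, 5 of the 9 genes with an ERSE match were called lower in females, with a median log2 difference of -1.07 over the 9, against 7.4% lower of all genes. Of the 19 genes with a promoter entry and no ERSE match, 8 were called, with a median of -0.73. The 19 include genes with an ERSE-II or CARE match, such as Dnajb11 and Asns, which were both among the 8. Without male 4 these counts were 0 of the 9 and 1 of the 19, against 3.11% lower of all genes, and the medians -0.31 and -0.28. In adipose tissue of 12-week males the 9 genes had 4 calls and a median of 0.60 for HFD over RD, and the 19 genes 4 calls and a median of 0.38, against 13.2% higher of all genes. Without male 4 they had 0 calls and a median of 0.33, and 2 calls and a median of 0.17, against 7.45% higher of all genes. On RD in the liver at 12 weeks the medians were -0.67 and -0.68 for females over males, nearly equal. On HFD in the liver at 2 weeks 2 of the 9 and 7 of the 19 were called between the sexes, against 12.4% of all genes, with medians of -0.95 and -0.62. Between the tissues 7 of the 9 and 16 of the 19 were called, against 72.2% of all genes, with medians of 1.41 and 0.96.

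**Figure D5:**
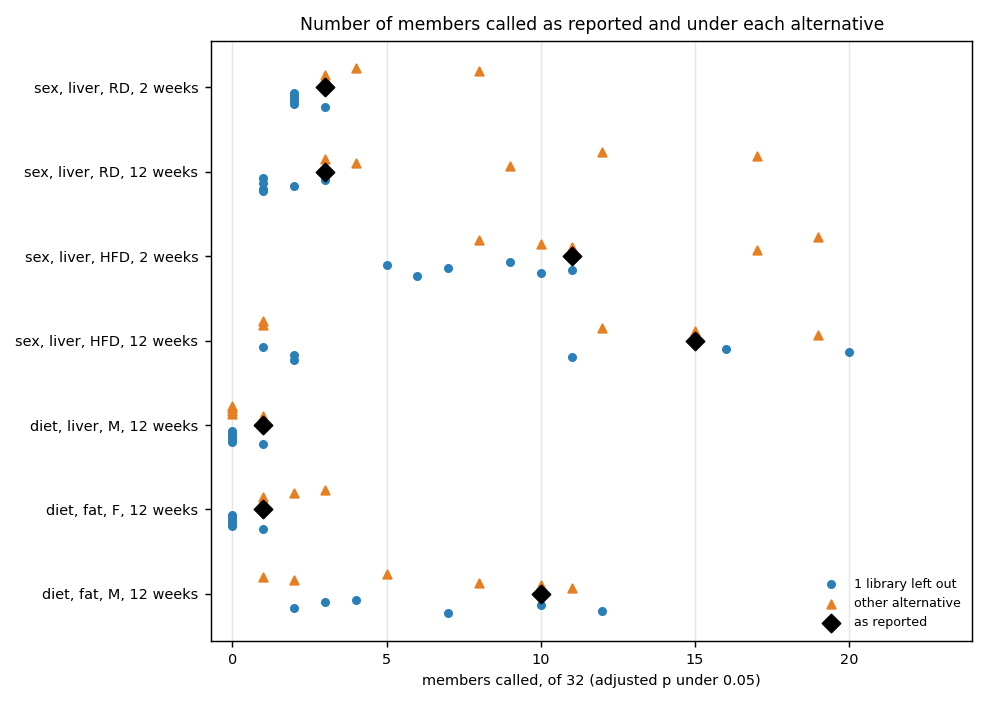
Number of the 32 genes called in 7 comparisons (down the page) as reported and under the alternatives, with the lowest and highest count when 1 library is left out. For the sex comparison in liver on HFD at 12 weeks the count is 15 as reported and between 1 and 20 with 1 library left out.

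How far the calls depend on single libraries is shown in the plot of genes called under the alternatives. Shares of all genes called are given above only for the fits without male 4. Under the other alternatives a changed count is not read as particular to the 32 genes. The calls that held in every alternative run within a tissue were those of Asns in the 4 liver sex comparisons, Dnajc3 and Sdf2l1 in the liver sex comparison on HFD at 2 weeks, and Pdia6 in that on RD at 2 weeks. No call among the 32 genes changed sign in any alternative.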

How the data were processed

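Libraries were made from poly(A) RNA with a strand-specific kit, 200 ng of total RNA each, per the labels' protocols. The authors deposited 1 table of expected counts (estimated counts) per gene symbol, not normalized, for all 48 libraries. Per the submitters' processing notes, kallisto, DESeq2 and edgeR were used with the GRCm38 build, in steps and versions not given in the sources used here. The counts were rounded to whole numbers, and liver and adipose libraries were fitted separately, 24 libraries in 8 groups, with edgeR 4.0.16 in R 4.3.3 (low-count filter by group, TMM scaling, robust quasi-likelihood test). Liver and adipose tissue were compared in a fit of the 12 RD female libraries. P-values were Benjamini-Hochberg adjusted over all genes tested, and adjusted p under 0.05 is a call. Errors of log2 differences are standard errors derived from the test statistic. Depth, given with the results, sets the counting error. Replicates of a group were compared and none were duplicates: the lowest chi-square per gene between 2 libraries was 49.36.

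Alternatives were DESeq2 1.42.0, median-of-ratios scaling, no filter, the compared groups alone, a replicate block and each library left out. Leaving out the libraries that stood apart, and the promoter motifs, were chosen after seeing the data. The scripts' tests were checked on simulated data. The genes and all pathway and marker lists were chosen with earlier results of these data known. Every called gene of the 32 was named, with values for the 8 smallest p-values where more were called. Where none were called, the 2 smallest p-values were given. Called genes of the pathway lists are examples, up to 2 per list and comparison by smallest p.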

Additional observations from a re-analysis of the deposited data

How the results depend on the processing

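The numbers below are counts of the 32 genes called, with the reported count first. They are given without the share of all genes called under the same alternative. A gain or loss of calls is therefore not read as particular to the 32 genes. DESeq2 gave more calls in the liver sex comparisons (RD 12 weeks 3 and 9, HFD 2 weeks 11 and 17) and gave calls where there were none in the male diet by time term of liver (1) and of adipose tissue (1), the adipose diet comparison at 2 weeks in females (2) and in males (1), and the adipose sex comparisons on RD at 2 weeks (3) and 12 weeks (1) and on HFD at 12 weeks (3). With the compared groups fitted alone the liver sex counts were 8 on RD at 2 weeks (3 reported), 17 on RD at 12 weeks (3) and 1 on HFD at 12 weeks (15), the diet counts were 0 in liver of 12-week males (1), 2 in adipose tissue of 12-week females (1) and 2 in that of 12-week males (10), and the adipose sex count on HFD at 12 weeks was 2 (0). Without the low-count filter the liver diet count of 12-week males was 0 (1).

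With the libraries that stood apart left out, the liver sex counts were 12 on RD at 12 weeks (3) and 19 on HFD at 2 weeks (11). On HFD at 12 weeks the count was 1 (15), and the gene was Asns, the same as without male 4. The full set of libraries that stood apart is not listed here, so this is not read as a check separate from leaving out male 4. With the libraries that stood apart left out, the diet counts were 0 in liver of 12-week males (1), 3 in adipose tissue of 12-week females (1) and 5 in that of 12-week males (10). The adipose sex counts on RD were 2 at 2 weeks (0) and 2 at 12 weeks (0). Leaving out 1 library in turn gave ranges of 0 to 1 for the diet in liver of 12-week males, 2 to 3 and 1 to 3 for sex in liver on RD at 2 and 12 weeks, and 5 to 11 and 1 to 20 on HFD (20 without HFD 12-week male 2). In adipose tissue the ranges were 0 to 1 for the diet in females at 2 weeks (1 without HFD female 2 or 5) and at 12 weeks, 2 to 12 for the diet in 12-week males, 0 to 1 for sex on RD at 2 weeks (1 without RD male 6), 0 to 5 for sex on RD at 12 weeks (5 without RD male 2) and 0 to 1 for the male diet by time term (1 without RD 12-week male 2 or 4). The cause of these shifts was not tested.

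Over the gene results called, 462 of 588 were still called with 1 library left out, 71 of 71 with DESeq2 and with median-of-ratios scaling, 62 of 71 without the filter, 15 of 44 in the compared groups alone, 28 of 38 with the replicate block and 22 of 44 without the libraries that stood apart. The totals of 588, 71 and 38 include the 27 calls between the tissues. All of these but that of Sec61b held in every alternative. The pooled shares are therefore not read as the stability of the diet and sex calls. The totals of 44 hold diet and sex calls alone. None were reversed. For HFD and RD the replicate numbers were not shown to pair the libraries: correlations of same-numbered deviations ran from -0.0075 to 0.163 in adipose tissue of 12-week males and from -0.142 to 0.235 in their livers, and from -0.107 to 0.117 and -0.0432 to 0 in adipose tissue and liver of 2-week females. Between liver and adipose tissue of RD females they ran from 0.126 to 0.273 at 12 weeks, where each of the 3 livers correlated best with its own number, and from 0.0335 to 0.0919 at 2 weeks, where 2 of 3 did, so same-numbered libraries may be paired at 12 weeks. With a replicate block, 1 gene (Atf3) was called for the diet in adipose tissue of 12-week males (10 without it) and 0 in their livers (1), 0 in both tissues of 2-week females (0), and 29 between the tissues (27, with Atf3 and Derl3 added). With 3 libraries a group, a single library can move a group mean, and small differences in genes of few counts, such as Derl3 and Asns in liver of females, have wide errors.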
